A study of Mus musculus with 60 samples.

Results

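The genes described here are 35 mouse genes that sense viral RNA in the cytosol or are known to be induced by interferon. They were selected on 1 measured value, a count in any of the 60 libraries, after being taken by name from the deposited raw counts. All 35 met that rule, out of 50559 genes in the table and 35461 with a count. The list itself was drawn up with earlier results of these libraries known, so the numbers of members that changed are a description of the list, to be read beside the share of all genes that changed in the same comparison. A total of 33 members passed the filter on low counts (at least 1.65 CPM in at least 3 libraries, where CPM are counts scaled to a common library size), and Tlr3 and Ifi44 did not. Of these, 21 passed in libraries outside the Eed knockout. The other 12 (Ifih1, Irf7, Ifit1, Ifit3, Oasl2, Isg15, Usp18, Rsad2, Cxcl10, Ifi27, Rtp4 and Lgals3bp) passed only through Eed knockout libraries, which fixes that they were high there.

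RNA-seq of polyadenylated RNA was carried out on mouse embryonic stem cells of 4 lines: 1A wild type, V19 wild type, and an Ezh2 and an Eed knockout of line 1A. Each knockout is 1 edited line, so the genotype and the line cannot be told apart. All cells grew on gelatin in medium with serum and the cytokine LIF, and 0 h stands for cells with no other agent. The later groups had received 2i, a pair of kinase inhibitors, for 12, 24, 48 or 96 h: CHIR99021 at 3 µM, which inhibits GSK3, and PD0325901 at 1 µM, which inhibits MEK. The 20 groups of line and time held 3 biological replicates each. No labelled group was given interferon, viral RNA or a virus.

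In mammalian cells, double-stranded or uncapped RNA in the cytosol is bound by the RIG-I-like receptors RIG-I (Ddx58) and MDA5 (Ifih1), which signal through the mitochondrial adaptor MAVS to the transcription factors IRF3 and IRF7. These switch on interferon genes. Secreted interferon acts through its receptor, JAK kinases and a complex that contains STAT2 and IRF9, which binds interferon-stimulated response elements in promoters and raises a large set of antiviral genes. Pluripotent stem cells are known for a weak interferon system. Ezh2 and Eed encode subunits of Polycomb repressive complex 2 (PRC2), which methylates histone H3 at lysine 27. Ezh1 can stand in for Ezh2 in part, whereas Eed is needed for the complex as a whole.

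Library totals ranged from 2561169 to 11065948 counts (median 6055990). The targeted genes followed the labels: Ezh2 RNA lay within 14.5 to 19.9 CPM where it was knocked out and 154 to 278 CPM in the other lines, and Eed RNA within 15.3 to 28.2 CPM where it was knocked out and 202 to 448 CPM in the other lines. A set of 4 libraries stood apart from their replicates (Eed knockout 12 h replicate 1, 1A wild type 48 h replicate 3, and V19 wild type 48 h replicates 2 and 3), and counts at these times are given with and without them. Every adjusted p below is a Benjamini-Hochberg value of edgeR's quasi-likelihood test over 15083 genes, and a gene was called higher or lower at an adjusted p under 0.05. Changes are on the log2 scale with their standard error, and levels are CPM with n = 3 libraries per group, in the order of the replicates. The kit does not mark strand and the counting setting is not given in the sources used here, so reads of Parp9 and Dtx3l, which overlap on opposite strands, cannot be told apart where they overlap. Reads of Oas1a, Ifit3 and Ifi27 may be shared with their near-identical copies.

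The response element bound by the complex with STAT2 and IRF9 has a core of repeated GAAA. The letters GAAA, any 2 bases and GAAA again were searched on both strands, matches allowed to overlap, from 250 bases before to 50 after each start site in a RefSeq promoter table of build GRCm38.p6. That build differs from the GRCm39 of the counts, so the positions here belong to the older one. The table holds 28 of the 35 members, and 11 of the 28 (39.3%) held a match: Ddx58, Ifih1, Stat2, Ifit1, Ifit3, Oas1a, Eif2ak2, Isg15, Bst2, Rsad2 and Cxcl10. Of all 27025 genes in the table, 3.99% held one, and of all 32851 promoters, 3.44%. A match is a description of letters, not a bound site. Of the 6 promoters below, those of Ddx58, Bst2, Oas1a and Stat2 were taken by a rule. Among members with a match, they were named in the most comparisons tested below (22, 9, 8 and 8). Ddx58 fell in every line, Bst2 fell in 3 lines and rose in the Eed knockout, and Oas1a and Stat2 rose in every line. Isg15 and Ifit1 at 96 h were called higher in the Eed knockout and in no other line. The last pair was chosen after their values were seen. Each runs 5′ to 3′ on the gene's strand, from 250 bases before to 20 after the start, with matches in capitals. The stretches are chr4:40239806-40240075, minus strand, chr8:71537453-71537722, minus strand, chr5:120907506-120907775, minus strand, chr10:128270248-128270517, plus strand, chr4:156200799-156201068, minus strand, and chr19:34640639-34640908, plus strand.

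Ddx58: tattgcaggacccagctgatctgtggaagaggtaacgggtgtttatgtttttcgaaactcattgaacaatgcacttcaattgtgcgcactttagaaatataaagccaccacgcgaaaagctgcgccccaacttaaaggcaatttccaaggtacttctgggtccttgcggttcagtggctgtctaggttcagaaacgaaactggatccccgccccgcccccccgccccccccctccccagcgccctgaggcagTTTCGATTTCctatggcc
Bst2: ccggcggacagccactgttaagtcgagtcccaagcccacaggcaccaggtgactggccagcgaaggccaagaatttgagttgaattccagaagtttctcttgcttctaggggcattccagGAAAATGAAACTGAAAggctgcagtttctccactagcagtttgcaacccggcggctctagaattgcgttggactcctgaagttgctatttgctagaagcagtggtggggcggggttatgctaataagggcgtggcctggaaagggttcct
Oas1a: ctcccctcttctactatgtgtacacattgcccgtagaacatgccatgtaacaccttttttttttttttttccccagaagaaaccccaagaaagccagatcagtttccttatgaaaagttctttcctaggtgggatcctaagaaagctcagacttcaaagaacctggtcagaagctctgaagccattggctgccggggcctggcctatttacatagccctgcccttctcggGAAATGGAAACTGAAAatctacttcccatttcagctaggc
Stat2: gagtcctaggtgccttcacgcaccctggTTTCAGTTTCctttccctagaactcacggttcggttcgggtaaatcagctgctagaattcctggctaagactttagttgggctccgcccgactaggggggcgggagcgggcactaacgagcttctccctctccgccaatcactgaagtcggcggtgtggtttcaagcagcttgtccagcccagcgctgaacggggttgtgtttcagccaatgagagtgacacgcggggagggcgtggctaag
Isg15: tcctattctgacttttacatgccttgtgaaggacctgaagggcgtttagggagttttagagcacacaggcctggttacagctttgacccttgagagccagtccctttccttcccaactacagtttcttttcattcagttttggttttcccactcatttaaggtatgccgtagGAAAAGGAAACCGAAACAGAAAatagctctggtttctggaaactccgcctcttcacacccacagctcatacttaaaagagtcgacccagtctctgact
Ifit1: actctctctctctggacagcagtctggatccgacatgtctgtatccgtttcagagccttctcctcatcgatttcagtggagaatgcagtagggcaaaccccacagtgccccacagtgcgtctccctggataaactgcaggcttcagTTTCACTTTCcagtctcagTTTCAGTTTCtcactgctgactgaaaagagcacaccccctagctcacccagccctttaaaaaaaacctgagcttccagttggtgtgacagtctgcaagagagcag

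The Isg15 promoter held 3 matches 66 to 78 bases before the start. Bst2 held 2 at 124 to 130 bases, Oas1a 2 at 14 to 20 bases and Ifit1 2 at 85 to 104 bases before it. Stat2 held 1 match 222 bases before the start, and the 1 match of Ddx58 lay 3 bases after it. Only promoters with a match could be shown, so that all of them hold these letters says nothing of their courses. Mavs and Xaf1, which rose in every line, held no match, nor did Irf7 and Oasl2.

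Without inhibitors, line 1A expressed a subset of the list. Per length of exon (RPKM), the highest members at 0 h were the virion tether Bst2 at a mean of 117, the ubiquitin ligase Trim25 at 39.6 and the RNA sensor Ddx58 at 14.98, while Isg15, Usp18, Ifit1, Ifit3, Irf7, Rsad2, Rtp4, Ifi27 and Ifih1 had means under 1 CPM. In the Eed knockout at 96 h, all 35 members had a count in each of the 3 libraries.

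**Figure D1:**
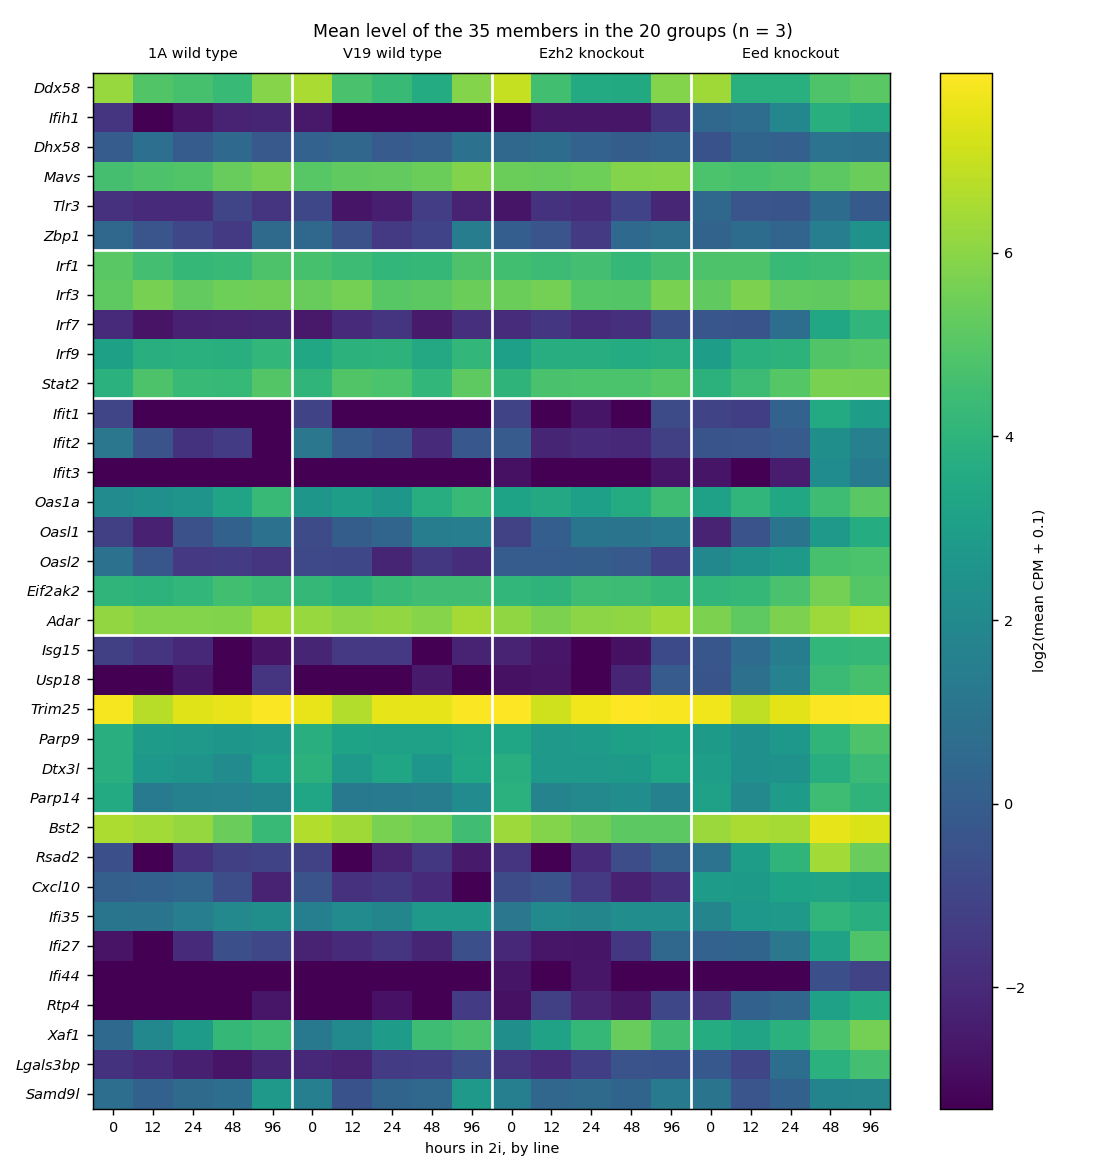
Mean level of the 35 members (rows, in blocks by role) in the 20 groups of line and hours in 2i (columns), as log2 of the mean CPM of 3 libraries plus 0.1. Levels of different genes are not per length, so the map reads along rows: in the Eed knockout most rows brighten at 48 h and 96 h, while the rows of the other 3 lines change in both directions.

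In 1A wild type, 4, 4, 9 and 10 of the 33 tested members were called higher than at 0 h after 12, 24, 48 and 96 h, against 20%, 24%, 26.8% and 25.1% of all genes. In the same order 11, 12, 12 and 9 members were called lower, against 20.8%, 22.4%, 26.2% and 23.5%, and 40.8%, 46.4%, 53% and 48.6% of all genes were called either way. V19 wild type gave 4, 3, 5 and 12 members higher (21.5%, 21%, 26.7% and 24.8% of all genes) and 10, 10, 8 and 7 lower (20.8%, 19.4%, 24.2% and 22.7%), beside 42.3%, 40.4%, 50.8% and 47.5% of all genes called either way. The Ezh2 knockout gave 5, 6, 7 and 14 members higher (26.2%, 24.5%, 25.1% and 22.2%) and 10, 9, 9 and 4 lower (23.9%, 22.2%, 24% and 20.7%), beside 50.1%, 46.7%, 49.1% and 42.8% either way. At 96 h the 1A counts of 10 and 9 were near the shares of all genes, and they became 10 and 10 with DESeq2's size factors and 9 and 9 by DESeq2. For the Eed knockout 8, 11, 27 and 28 of 33 members were called higher (25.2%, 23.4%, 28.1% and 23.3% of all genes), and 6, 3, 2 and 1 lower (25.2%, 17.7%, 21.1% and 16.4%), beside 50.3%, 41.1%, 49.2% and 39.7% either way. The median log2 change of the tested members there was 0.14, 0.66, 1.62 and 1.95, beside 0.02 to 0.06 for all genes. Over the 21 members that passed the filter outside the Eed knockout, 6 were higher and 6 lower there at 12 h (median log2 change 0.006). In the same knockout 5 were higher and 3 lower at 24 h (0.11), 16 and 2 at 48 h (1.27), and 17 and 1 at 96 h (1.42). The same 21 gave 10 higher and 6 lower in 1A at 96 h, 11 and 6 in V19, and 9 and 4 in the Ezh2 knockout. Without the libraries that stood apart, an alternative chosen after seeing the data, 8 members were higher and 13 lower in 1A at 48 h, 4 and 7 in V19 at 48 h, and 7 and 5 in the Eed knockout at 12 h.

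The authors also deposited counts normalised by removal of unwanted variation (RUV), with settings that are not given in the sources used here. On those values (log2 of the value plus 1, limma) the Eed knockout gave 25 higher and 2 lower at 48 h and 26 and 1 at 96 h, close to the counts above. Of all 17754 genes on those values, 5715 were called at 48 h, 41.7% of them higher, and 5022 at 96 h, 54.3% of them higher. The split moved at its early times, to 7 higher and 8 lower at 12 h and 5 and 4 at 24 h. There 55.4% of the 7397 genes called at 12 h and 46% of the 4184 called at 24 h were higher. The split also moved in V19 at 48 h (5 and 14) and 96 h (9 and 9), in 1A at 96 h (9 and 10) and in the Ezh2 knockout at 24 h (4 and 10). In that order 8509, 7341, 7499 and 6577 genes were called on those values, 48.8%, 49.4%, 49.8% and 50.6% of them higher. For Isg15, Ifih1 and Rsad2 the gaps between lines at 96 h were much smaller on the RUV values than in CPM. The RUV means in the Eed knockout and 1A were 12.3 and 1.67 for Isg15 and 5.33 and 2.33 for Ifih1. For Rsad2 they were 10.3 and 6.67, beside 12.3 in the Ezh2 knockout. In bulk RNA, fewer cells of a type and less RNA per cell cannot be told apart.

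A total of 7 members were called higher at 96 h in all 4 lines: Mavs, Irf9, Stat2, Oas1a, Oasl1, Ifi35 and Xaf1. Ddx58 was the 1 member called lower in all 4. Another 7 were called lower in 1A and higher in the Eed knockout (Ifit1, Ifit2, Oasl2, Parp9, Dtx3l, Parp14 and Bst2), and 13 were called higher in the Eed knockout and in neither direction in 1A. Ifit1 and Oasl2 of these 7 passed the filter only through Eed knockout libraries. So did Ifih1, Irf7, Ifit3, Isg15, Usp18, Rsad2, Ifi27, Rtp4 and Lgals3bp of the 13, which fixes that they were high there. The share of all genes with each of these patterns was not counted, so the numbers describe the list only.

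Among the sensors, Ddx58 (RIG-I) fell early in every line and had come back in part by 96 h. In 1A wild type it was at 77.1, 68.3 and 77.6 CPM at 0 h, 29.7, 27.7 and 31.9 at 12 h, 29.9, 21.8 and 23.9 at 24 h, 21.2, 20.5 and 17.5 at 48 h and 63.2, 55.7 and 63.3 at 96 h. The log2 change was -1.88 ± 0.11 (SE), adjusted p = 5.1e-20 at 48 h and -0.29 ± 0.10 (SE), adjusted p = 0.0125 at 96 h, and no library at 12 to 48 h reached the lowest at 0 h. The change at 12 h was -1.32 ± 0.10 in 1A, -1.82 ± 0.10 in V19, -2.46 ± 0.10 in the Ezh2 knockout and -2.56 ± 0.11 in the Eed knockout. So every line lost most of its Ddx58 RNA within 12 h. The lines parted later. In the Ezh2 knockout the gene went from 132, 122 and 124 CPM at 0 h to 10.1, 11.5 and 13.2 at 48 h and 57.8, 55.2 and 60.1 at 96 h. The Eed knockout went from 89.4, 80.5 and 77.99 to 16.3, 14.3 and 12.3 at 24 h, then 27.3, 28.7 and 31.1 at 48 h and 34.98, 31.1 and 33.6 at 96 h, where it lay below all 9 other libraries (-0.87 ± 0.10 (SE), adjusted p = 3.05e-10 against 1A).

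Ifih1 (MDA5), the other receptor that signals through MAVS, was close to absent outside the Eed knockout, where no library of the other 3 lines exceeded 0.509 CPM. In the Eed knockout it was at 1.26, 1.22 and 1.35 CPM at 0 h, 3.87, 3.61 and 3.38 at 24 h, 11.7, 15.5 and 14.4 at 48 h and 10.3, 11.1 and 11.8 at 96 h (3.09 ± 0.27 (SE), adjusted p = 2.23e-12). At 96 h the counts were 226 in the Eed knockout and 2 in 1A, a ratio of 93.9-fold (95% interval 25.7 to 780.0). Between 0 h and 96 h the 2 receptors moved in opposite directions in the Eed knockout, while from 24 h to 48 h the values of both went up. Dhx58 (LGP2), which modulates both, ranged from 0.323 to 3.68 CPM over all libraries and was called higher in the Eed knockout at 96 h (1.54 ± 0.47 (SE), adjusted p = 0.0064). In the wild-type lines and the Ezh2 knockout its 96 h changes did not pass the test, with -0.11 ± 0.53 in 1A.

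The adaptor Mavs was higher at 96 h than at 0 h in every line. In 1A it was at 24.6, 23.5 and 25.4 CPM at 0 h and 49.7, 51.3 and 49.7 at 96 h (1.04 ± 0.10 (SE), adjusted p = 3.17e-13), with no overlap. The Eed knockout went from 25.03, 27.4 and 28.2 to 40.7, 43.8 and 42.01 (0.65 ± 0.09 (SE), adjusted p = 1.1e-07) and the Ezh2 knockout from 40.8, 38.5 and 48.7 to 62.8, 59.2 and 59.7 (0.51 ± 0.09 (SE), adjusted p = 3.77e-06). The Ezh2 knockout thus began higher and gained less, a difference of response of -0.53 ± 0.13 (SE), adjusted p = 0.00303. Zbp1, a sensor of left-handed nucleic acid, was at 1.48, 0.98 and 1.27 CPM in 1A at 0 h, 0.343, 0.488 and 0 at 48 h (-1.79 ± 0.61 (SE), adjusted p = 0.0122) and 1.43, 1.53 and 1.28 at 96 h. Without 1A replicate 1 of 0 h the 48 h change of Zbp1 missed the threshold (adjusted p = 0.056, edgeR). The Eed knockout had reached 5.29, 5.10 and 5.46 by 96 h (2.23 ± 0.32 (SE), adjusted p = 1.22e-07), above every other library of that time. The endosomal receptor Tlr3 was not tested. It lay at 0.777, 0.729 and 0.98 CPM in the Eed knockout at 96 h and at 0 to 0.381 CPM in the 9 other libraries of that time.

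**Figure D2:**
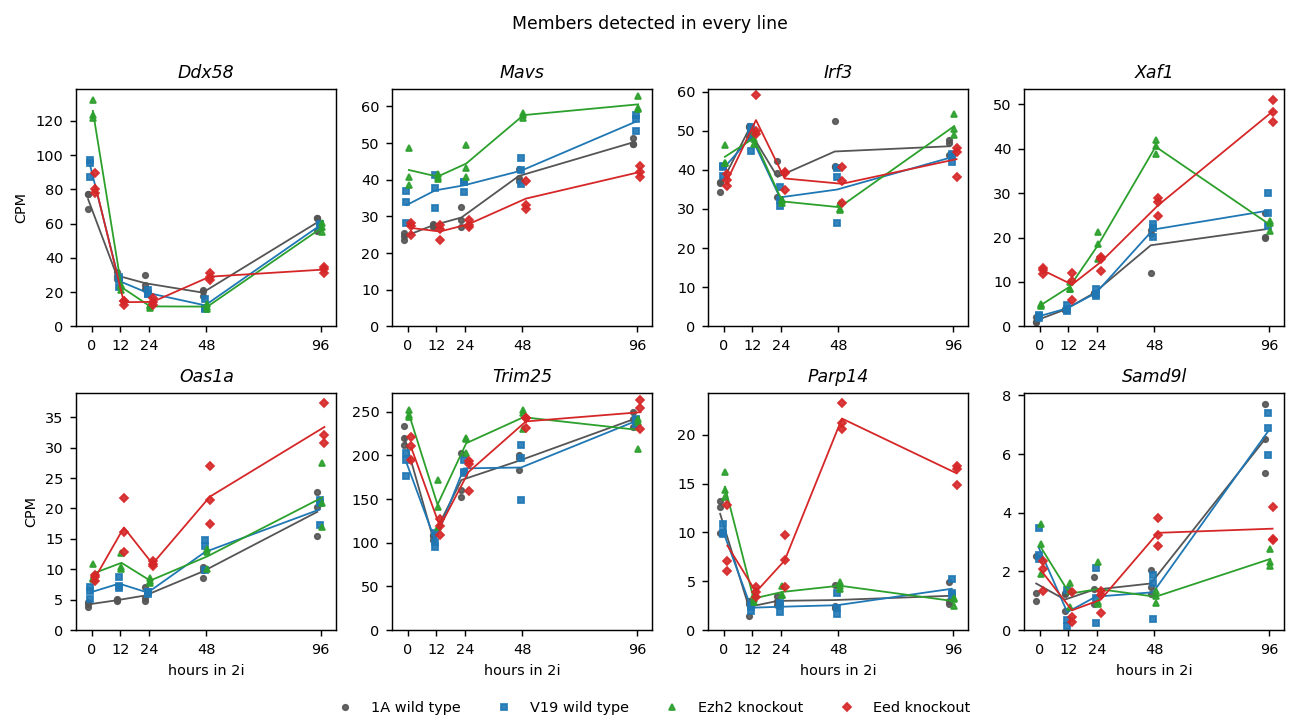
CPM of each library (points) against hours in 2i for 8 members expressed in all 4 lines, with lines through the means of 3 libraries. Ddx58 falls to its lowest between 12 h and 48 h in all lines and is still below its start at 96 h. Mavs, Xaf1 and Oas1a end above their start in all lines, though not always by a steady climb. Xaf1 in the Ezh2 knockout is highest at 48 h and lower at 96 h, and Oas1a in the Eed knockout dips from 12 h to 24 h. Parp14 falls in 3 lines and recovers past its start in the Eed knockout.

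The transcription factors took different courses. Irf3 is activated by phosphorylation rather than by a rise in its RNA. In 1A it was at 36.9, 36.6 and 34.3 CPM at 0 h, 51.3, 48.7 and 50.8 at 12 h (0.48 ± 0.10 (SE), adjusted p = 0.000137) and 47.6, 43.7 and 46.8 at 96 h (0.35 ± 0.10 (SE), adjusted p = 0.00357). It was called higher at 12 h in the Eed knockout (0.48 ± 0.10 (SE), adjusted p = 8.43e-05), and the 96 h change of 0.19 ± 0.10 (SE), adjusted p = 0.129 did not pass the test. In the Ezh2 knockout it went from 41.8, 46.4 and 41.8 CPM at 0 h to 31.4, 32.2 and 32.2 at 24 h (-0.44 ± 0.10 (SE), adjusted p = 0.000303) and 31.6, 29.7 and 30.01 at 48 h (-0.51 ± 0.10 (SE), adjusted p = 3.75e-05). Irf7, which amplifies the interferon response, was listed at no more than 0.826 CPM in any library of the other 3 lines. Eed knockout libraries held 0.787, 0.697 and 0.675 CPM at 0 h, 1.93, 0.937 and 1.91 at 24 h, 8.20, 12.6 and 10.9 at 48 h and 15.1, 16.3 and 19.6 at 96 h, a log2 change of 4.52 ± 0.34 (SE), adjusted p = 7.42e-16. Its replicates did not overlap with those of any other line at 0, 24, 48 or 96 h. Irf1, another activator of antiviral genes, fell for a time. In 1A it went from 34.2, 27.6 and 37.6 CPM to 16.4, 19.6 and 18.8 at 24 h (-0.85 ± 0.12 (SE), adjusted p = 4.48e-08) and was at 24.5, 28.2 and 30.7 at 96 h, and in the Eed knockout the 96 h change did not pass the test (-0.17 ± 0.11 (SE), adjusted p = 0.258).

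Irf9 and Stat2, the interferon-specific subunits of the complex that binds response elements, rose in every line. Irf9 was at 8.88, 8.98 and 7.12 CPM at 0 h and 18.6, 17.2 and 17.8 at 96 h in 1A (1.08 ± 0.16 (SE), adjusted p = 6.76e-08), and at 7.87, 6.27 and 8.61 and 30.6, 32.2 and 33.6 in the Eed knockout (2.08 ± 0.14 (SE), adjusted p = 2.14e-17). Stat2 was at 15.2, 13.9 and 15.00 and 35.2, 31.3 and 25.1 CPM in 1A (1.06 ± 0.15 (SE), adjusted p = 8.42e-08), and at 17.9, 11.8 and 15.5 and 51.2, 44.8 and 52.6 in the Eed knockout (1.71 ± 0.14 (SE), adjusted p = 2.07e-14). At 0 h the lines overlapped for both genes, and at 48 h and 96 h the Eed knockout lay above all 9 other libraries. The response was larger in the Eed knockout than in 1A by 1.00 ± 0.22 (SE), adjusted p = 0.000312 for Irf9 and by 0.65 ± 0.21 (SE), adjusted p = 0.0177 for Stat2. In V19 and the Ezh2 knockout the 96 h change of Stat2 was 1.10 ± 0.15 and 0.99 ± 0.15.

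Of the 8 effectors that bind or edit RNA, all 8 were called higher in the Eed knockout at both 48 h (28.1% of all genes) and 96 h (23.3%). Ifit1, Ifit3 and Oasl2 among them passed the filter only through Eed knockout libraries. In 1A at 96 h, 3 were higher (25.1% of all genes) and 3 lower (23.5%). The IFIT proteins bind viral RNA by its 5′ end and block its translation. Ifit1 was at 0.74, 0 and 0.509 CPM in 1A at 0 h and had no count in any 1A library from 12 h to 96 h. The Eed knockout had 0.315, 0.348 and 0.506 CPM at 0 h, 1.32, 0.669 and 1.17 at 24 h, 8.02, 11.3 and 16.5 at 48 h and 7.15, 7.44 and 8.96 at 96 h (4.27 ± 0.47 (SE), adjusted p = 8.57e-09). At 96 h this was at least 44.6-fold higher than in 1A, with 3 counts over the 1A group as the floor. Ifit2, also on chromosome 19, was at 2.07, 2.45 and 1.78 CPM in 1A at 0 h and at 0 in all 3 libraries at 96 h, a fall of at least 12.1-fold. The level in the Eed knockout was 0.787, 0.523 and 0.675 CPM at 0 h, lower than in 1A (-1.65 ± 0.48 (SE), adjusted p = 0.00373), then at 4.01, 3.67 and 6.97 at 48 h and 2.02, 3.06 and 3.64 at 96 h. Ifit2 thus moved down in 1A and up in the Eed knockout from a lower start. Ifit3 had no count in any wild-type library and was at 2.37, 4.30 and 6.50 CPM in the Eed knockout at 48 h and 2.33, 2.77 and 2.10 at 96 h, at least 13.6-fold above 1A.

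The 2′-5′ oligoadenylate synthetase Oas1a makes the messenger that activates RNase L. It rose in all 4 lines, from 3.85, 4.25 and 4.58 to 15.4, 22.7 and 20.2 CPM in 1A (2.21 ± 0.20 (SE), adjusted p = 2.8e-13), and from 9.13, 8.71 and 8.10 to 30.8, 37.3 and 32.1 in the Eed knockout (1.95 ± 0.16 (SE), adjusted p = 1.69e-14). The 2 responses differed by -0.26 ± 0.27 (SE), adjusted p = 0.532, which did not pass the test. Both knockouts began above 1A, the Eed knockout by 1.05 ± 0.23 (SE), adjusted p = 0.000133 and the Ezh2 knockout by 1.16 ± 0.22 (SE), adjusted p = 5.06e-05. Oasl1 and Oasl2, which are both on chromosome 5 and encode OAS-like proteins, did not share a course. Oasl1 rose in 1A from 0.444, 0.327 and 0.254 to 1.75, 1.72 and 2.02 CPM (2.29 ± 0.56 (SE), adjusted p = 0.000544) and in the Eed knockout from 0.157, 0 and 0.169 to 12.4, 11.8 and 13.2 (255 counts against 2, a ratio of 112-fold (95% interval 30.8 to 933), adjusted p = 8.36e-18). Oasl2 fell in 1A from 1.48, 1.96 and 2.03 to 0.318, 0.191 and 0.184 CPM (-2.82 ± 0.64 (SE), adjusted p = 0.000233) and rose in the Eed knockout from 2.99, 3.83 and 4.56 to 27.2, 26.7 and 26.3 (2.82 ± 0.21 (SE), adjusted p = 4.52e-16). The pair therefore moved apart in 1A and together in the Eed knockout.

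Eif2ak2 (PKR), which stops translation when bound to double-stranded RNA, peaked at 48 h in the Eed knockout. It went from 16.1, 18.99 and 15.7 CPM at 0 h to 42.7, 50.5 and 50.6 at 48 h (1.502 ± 0.12 (SE), adjusted p = 3.11e-15) and 31.9, 29.2 and 34.7 at 96 h. In 1A it stayed within 15.5 to 25.4 CPM over all times. Adar, the editor of double-stranded RNA, was already abundant and lower in the Eed knockout at 0 h, at 54.8, 52.4 and 54.4 CPM against 66.5, 68.6 and 77.6 in 1A (-0.39 ± 0.10 (SE), adjusted p = 0.000896). By 96 h the order was the reverse, with 108, 104 and 102 CPM against 79.1, 86.2 and 80.8 (0.36 ± 0.09 (SE), adjusted p = 0.00111).

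Isg15 encodes a ubiquitin-like protein and Usp18 the protease that removes it and damps the interferon receptor. Outside the Eed knockout, neither exceeded 0.926 CPM in any library. Isg15 in the Eed knockout was at 1.26, 0.348 and 0.506 CPM at 0 h, 1.71, 0.736 and 1.82 at 12 h, 2.72, 1.87 and 3.38 at 24 h, 14.04, 21.4 and 17.6 at 48 h and 17.3, 18.8 and 19.3 at 96 h. Its log2 change was 1.85 ± 0.42 (SE), adjusted p = 0.000315 at 24 h and 4.64 ± 0.31 (SE), adjusted p = 5.08e-17 at 96 h. At 96 h the counts were 378 in the Eed knockout and 1 in 1A, a ratio of 314-fold (95% interval 56.03 to 12437). Usp18 followed the same times: 0.63, 0.523 and 0.844 CPM at 0 h, 4.39, 2.68 and 2.20 at 24 h, 16.4, 24.4 and 21.6 at 48 h and 25.3, 25.96 and 25.8 at 96 h (5.23 ± 0.31 (SE), adjusted p = 3.94e-16). For both genes most of the gain fell between 24 h and 48 h.

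The Ezh2 knockout showed the same genes near the limit of detection. At 96 h Usp18 was at 0.826, 0.926 and 0.764 CPM there (17 counts, against 1 at 0 h), a ratio of 16.6-fold (95% interval 2.61 to 695) that was called higher (adjusted p = 0.00234). Isg15 was at 0.826, 0.185 and 0.437 CPM, with 10 counts against 2 at 0 h, and the ratio of 4.89-fold (95% interval 1.04 to 45.9) did not pass the test (adjusted p = 0.0612). Against 1A at 96 h neither gene was called.

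**Figure D3:**
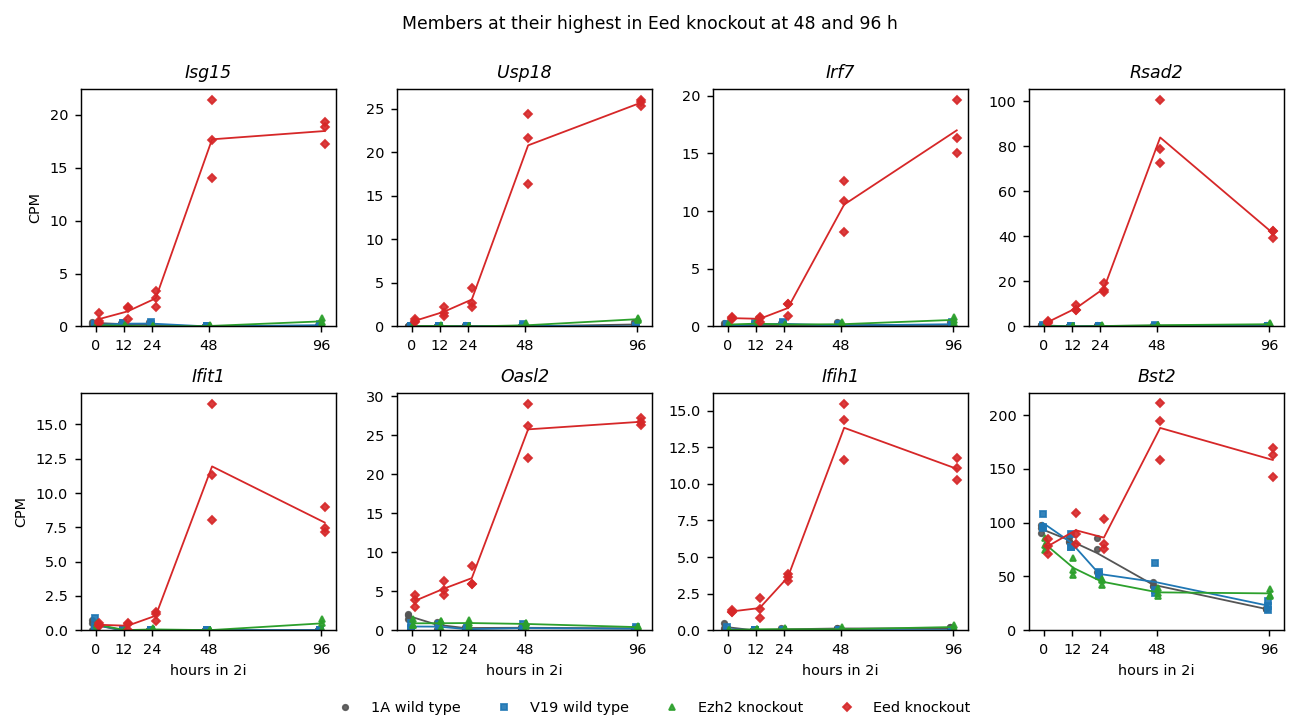
CPM of each library (points) against hours in 2i for 8 members that were highest in the Eed knockout, with lines through the means of 3 libraries. The Eed knockout moves furthest from the other lines between 24 h and 48 h. Rsad2 is highest at 48 h, while Isg15, Usp18 and Irf7 hold or gain by 96 h, and Bst2 falls in the other 3 lines.

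Trim25, a ligase for RIG-I and ISG15, dipped early in every line. In 1A it was at 219, 212 and 234 CPM at 0 h, 109, 108 and 103 at 12 h (-1.06 ± 0.10 (SE), adjusted p = 2.58e-12) and 241, 249.6 and 233 at 96 h. The change at 12 h was -0.90 ± 0.10 in V19, -0.79 ± 0.10 in the Ezh2 knockout and -0.82 ± 0.10 in the Eed knockout. Thus Trim25 and Ddx58, its substrate, both fell by 12 h in all 4 lines. At 48 h Ddx58 was still called lower in all 4, while Trim25 was called in none of them, with -0.20 ± 0.10 in 1A. Parp9 and its partner ligase Dtx3l, which sit head to head on chromosome 16, fell in 1A and rose in the Eed knockout. Parp9 went from 14.4, 12.7 and 12.97 to 7.16, 6.29 and 7.16 CPM in 1A (-0.96 ± 0.19 (SE), adjusted p = 3.4e-05), and from 6.30, 6.45 and 8.44 to 28.5, 25.1 and 31.1 in the Eed knockout (2.00 ± 0.17 (SE), adjusted p = 1.88e-14). Dtx3l went from 15.1, 12.6 and 12.2 to 9.71, 9.15 and 5.87 CPM in 1A (-0.69 ± 0.17 (SE), adjusted p = 0.000826), and from 6.77, 7.67 and 8.95 to 19.1, 19.7 and 23.7 in the Eed knockout (1.42 ± 0.16 (SE), adjusted p = 2.33e-10). Both were lower in the Eed knockout than in 1A at 0 h and higher at 96 h.

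Parp14, a mono-ADP-ribosyltransferase, fell early and stayed low outside the Eed knockout. In 1A it was at 12.6, 13.2 and 9.92 CPM at 0 h, 3.00, 2.72 and 1.42 at 12 h (-2.30 ± 0.26 (SE), adjusted p = 1.55e-10) and 4.93, 2.67 and 2.94 at 96 h (-1.75 ± 0.24 (SE), adjusted p = 1.81e-08). The Eed knockout shared the early fall, from 7.08, 6.10 and 12.8 to 3.42, 4.41 and 3.91 CPM at 12 h (-1.11 ± 0.24 (SE), adjusted p = 0.000142). It then rose to 20.6, 21.2 and 23.2 at 48 h and was at 16.8, 14.9 and 16.5 at 96 h, a difference of response from 1A of 2.64 ± 0.30 (SE), adjusted p = 9.93e-10.

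Bst2 (tetherin), which holds budding virions at the cell surface, fell without return in the wild-type lines. In 1A it was at 98.1, 94.7 and 90.3 CPM at 0 h, 54.5, 75.5 and 85.5 at 24 h, 41.1, 44.8 and 40.8 at 48 h and 20.4, 19.5 and 19.5 at 96 h (-2.26 ± 0.16 (SE), adjusted p = 1.84e-17). V19 fell by the same time to 22.7, 26.8 and 18.8 (-2.13 ± 0.16 (SE), adjusted p = 1.35e-16) and the Ezh2 knockout to 38.3, 31.5 and 32.7 (-1.23 ± 0.15 (SE), adjusted p = 6.78e-10). The Eed knockout instead had 78.4, 84.7 and 70.7 CPM at 0 h, 158, 211 and 195 at 48 h and 142, 163 and 169 at 96 h (1.02 ± 0.14 (SE), adjusted p = 1.39e-08). At 0 h the Eed knockout differed from 1A by -0.28 ± 0.14 (SE), adjusted p = 0.0901, and at 96 h the Eed knockout was above 1A by 3.00 ± 0.16 (SE), adjusted p = 1.57e-22 and the Ezh2 knockout by 0.79 ± 0.17 (SE), adjusted p = 0.000585. Per length, Bst2 stayed the highest member of the list in the Eed knockout at 96 h, at a mean RPKM of 196 beside 24.5 in 1A.

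Rsad2 (viperin), which blocks viral replication, was already called higher at 12 h. In the Eed knockout it was at 1.89, 1.57 and 2.19 CPM at 0 h, 9.40, 7.36 and 7.29 at 12 h, 15.2, 19.1 and 16.2 at 24 h, 72.4, 78.9 and 100.3 at 48 h and 42.3, 39.4 and 42.6 at 96 h. The changes were 2.04 ± 0.31 (SE), adjusted p = 5.34e-07 at 12 h, 5.45 ± 0.23 (SE), adjusted p = 4.33e-24 at 48 h and 4.44 ± 0.24 (SE), adjusted p = 7.22e-20 at 96 h. In 1A the 15 libraries ranged from 0 to 0.832 CPM. Rsad2 thus had 1 of 5 courses in which all Eed knockout libraries at 48 h lay above all at 96 h, with Ifit2, Eif2ak2, Parp14 and Ifi35. For 15 members all 96 h libraries lay above those at 48 h, and for the other 15 the ranges overlapped. The share of all genes with either order was not counted, so these numbers do not set the list apart from other genes.

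Cxcl10, a chemokine, was set apart from the start. Its level in the Eed knockout was 5.19, 9.23 and 7.09 CPM at 0 h and 8.24, 7.58 and 9.66 at 96 h (0.25 ± 0.26 (SE), adjusted p = 0.464), while 1A was at 0.888, 0.98 and 1.02 and 0.159, 0.191 and 0. The difference between the lines at 0 h was 2.88 ± 0.41 (SE), adjusted p = 5.56e-08, but its direction turned on the RUV values. Xaf1, a pro-apoptotic interferon target, was also higher in the Eed knockout at 0 h, at 13.2, 11.8 and 12.7 CPM against 0.888, 2.12 and 1.02 in 1A (3.18 ± 0.25 (SE), adjusted p = 1.1e-15). It rose in all lines, in 1A to 20.2, 19.8 and 25.5 at 96 h (3.98 ± 0.23 (SE), adjusted p = 1.17e-20), in V19 to 25.5, 22.6 and 29.99 (3.54 ± 0.21 (SE), adjusted p = 2.51e-20) and in the Eed knockout to 46.02, 50.9 and 48.2 (1.94 ± 0.14 (SE), adjusted p = 5.38e-17). From the higher start, the response of the Eed knockout was the smaller one, with a difference from 1A of -2.04 ± 0.30 (SE), adjusted p = 4.04e-07. The Ezh2 knockout held Xaf1 at 4.99, 4.71 and 4.78 CPM at 0 h, 40.6, 38.9 and 41.9 at 48 h and 23.8, 23.3 and 21.4 at 96 h.

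Of the remaining effectors, Ifi27, Rtp4 and Lgals3bp were low in all groups outside the Eed knockout, with a highest library of 1.85 CPM. At 96 h in the Eed knockout Ifi27, a mitochondrial and nuclear envelope protein, was at 26.4, 29.2 and 30.8 CPM (4.75 ± 0.30 (SE), adjusted p = 2.92e-18). Rtp4, a zinc-finger protein with antiviral activity, was at 12.6, 13.1 and 12.5 (5.72 ± 0.43 (SE), adjusted p = 1.25e-13), and the secreted Lgals3bp at 22.2, 25.8 and 23.5 (4.91 ± 0.30 (SE), adjusted p = 1.9e-19). All 3 lay above their 48 h libraries. Ifi35 rose in every line, from 1.63, 2.61 and 1.78 to 4.62, 5.34 and 4.59 CPM in 1A (1.25 ± 0.29 (SE), adjusted p = 0.000303) and from 3.94, 4.01 and 2.36 to 15.5, 13.3 and 11.3 in the Eed knockout (1.95 ± 0.21 (SE), adjusted p = 4.23e-11). Samd9l, a translation inhibitor, rose in 1A from 2.52, 0.98 and 1.27 to 6.53, 5.34 and 7.71 CPM (1.97 ± 0.34 (SE), adjusted p = 3.01e-06). V19 went from 2.44, 3.48 and 2.55 to 5.97, 7.42 and 6.89, and the Eed knockout from 2.36, 2.09 and 1.35 to 3.11, 3.06 and 4.20. In the Ezh2 knockout Samd9l was at 3.61, 1.91 and 2.93 and 2.31, 2.78 and 2.18 (-0.20 ± 0.34 (SE), adjusted p = 0.68). The Ezh2 knockout response differed from that of 1A by -2.17 ± 0.49 (SE), adjusted p = 0.00127. Ifi44 was not tested and had counts in 7 libraries, 5 of them Eed knockout libraries at 48 h and 96 h, with a highest value of 1.16 CPM.

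Set against the other lines at the same time, the 3 Eed knockout libraries lay above all 9 others for 9, 10, 16, 27 and 28 of the 35 members at 0, 12, 24, 48 and 96 h. The same held for 20.5%, 18.1%, 23%, 26.4% and 25.1% of all genes tested. The 35 include Tlr3 and Ifi44, which were not tested, and the 12 members that passed the filter only through Eed knockout libraries. Of the 21 others, those above were Xaf1 at 0 h and Oas1a and Ifi35 at 12 h. At 24 h they were Zbp1, Stat2, Oas1a, Eif2ak2 and Ifi35. At 48 h they were Ddx58, Zbp1, Irf9, Stat2, Ifit2, Oas1a, Oasl1, Eif2ak2, Adar, Parp9, Dtx3l, Parp14, Bst2, Ifi35 and Samd9l. The 96 h names were the same without Ddx58 and Samd9l and with Xaf1. The members below all 9 others at 0 h were Oasl1, Adar, Parp9 and Dtx3l, where 19% of all genes were below. They were Ddx58 and Adar at 12 h (15.2%), and 0 members at 24 h (16.9%) and 48 h (19.2%). At 96 h the 2 members below all 9 others were Ddx58 and Mavs, and 19% of all genes were below.

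At 0 h, 9 members were called higher in the Eed knockout than in 1A (26.4% of all genes) and 5 lower (23.3%), beside 49.6% of all genes called either way. The 9 were Ifih1, Oas1a, Oasl2, Usp18, Rsad2, Cxcl10, Ifi35, Ifi27 and Xaf1, and the 5 were Ifit2, Adar, Parp9, Dtx3l and Parp14. Over the 21 members that passed the filter outside the Eed knockout, 3 were higher and 5 lower, with a median log2 difference of -0.15. This comparison depended on the scaling: on the RUV values 3 members were higher and 15 lower, and the direction turned for Ifih1, Oasl2, Rsad2, Cxcl10 and Ifi27. On those values 3005 of 17754 genes were called, 51.4% of them higher. The Ezh2 knockout differed from 1A at 0 h in 5 members higher (11.9% of all genes) and 2 lower (10.9%), among them Ddx58 (0.76 ± 0.09 (SE), adjusted p = 6.07e-09), Mavs (0.80 ± 0.10 (SE), adjusted p = 2.83e-09), Oas1a and Xaf1. V19 differed from 1A in 2 members higher (5.01%) and 2 lower (5.53%). Between the knockouts at 0 h, 11 members were higher in the Eed knockout (23.6%) and 7 lower (21.7%), or 3 and 7 of the same 21. On the RUV values all 15 members called between the knockouts were lower, while 1737 of 17754 genes were called, 50.2% of them higher.

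At 96 h, 27 of 33 members were called higher in the Eed knockout than in 1A (30.9% of all genes) and 3 lower (24.4%), with a median log2 difference of 2.03. Over the 21 members that passed the filter outside the Eed knockout, 15 were higher and 3 lower, with a median of 0.85. The 3 lower were Ddx58, Mavs and Samd9l. On the RUV values the split was 16 higher and 1 lower, and the direction turned for Mavs. There 3486 of 17754 genes were called, 56.7% of them higher. Against the Ezh2 knockout, 26 were higher (28.1%) and 3 lower (24%), or 14 and 3 of those 21, and on the RUV values all 9 called were higher. Of all 17754 genes on the RUV values, 2715 were called against the Ezh2 knockout, 69.1% of them higher. The Ezh2 knockout itself differed from 1A in 4 members: Bst2 and Mavs were higher (6.56% of all genes), and Irf9 and Samd9l lower (6.65%). Mavs and Irf9 each missed the threshold in most fits that left out 1 library. In those fits the adjusted p was 0.0547 to 0.107 for Mavs and 0.0506 to 0.116 for Irf9 (edgeR). V19 differed from 1A in 1 member, Ifit2 (4.16%), which had 0 counts in 1A. The comparisons with 1A at one time share the 1A libraries.

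**Figure D4:**
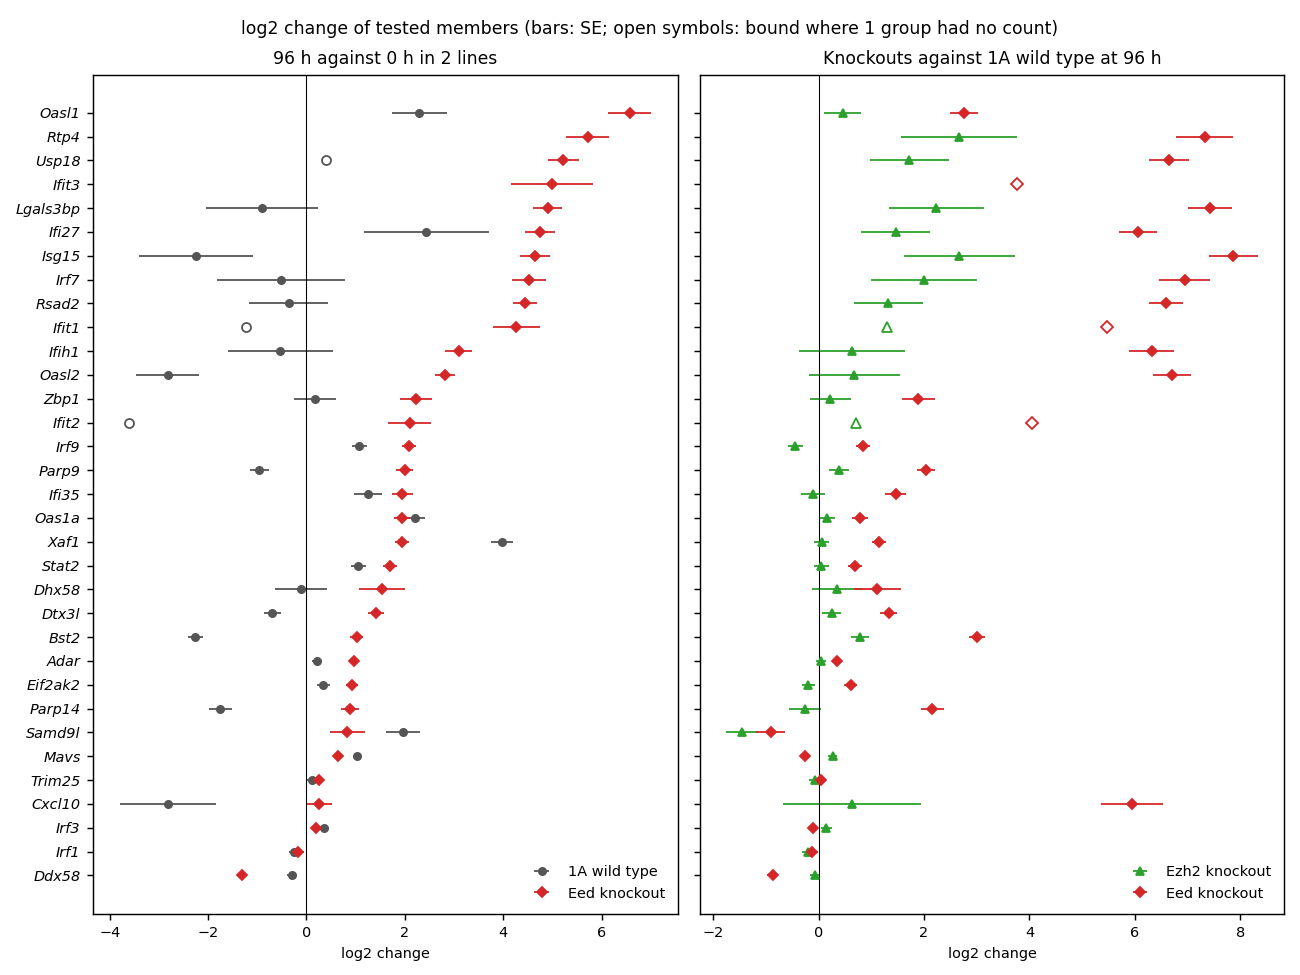
Log2 change with its standard error for the 33 tested members, ordered by the change in the Eed knockout at 96 h against 0 h. The left panel sets 96 h against 0 h in 1A wild type and the Eed knockout, and the right panel sets each knockout against 1A wild type at 96 h. Open symbols are bounds for genes without a count in 1 group. In the right panel the Eed knockout lies right of 0 for most members, and the Ezh2 knockout scatters about 0.

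The difference of the 96 h response between lines was tested directly. The Eed knockout response exceeded that of 1A for 19 members (14.9% of all genes) and was below it for 3 (12.4%), or for 11 and 3 of the 21 members that passed the filter outside the Eed knockout. Bst2 (3.28 ± 0.21 (SE), adjusted p = 9.33e-18), Oasl2 (5.64 ± 0.65 (SE), adjusted p = 8.56e-10) and Parp9 (2.96 ± 0.25 (SE), adjusted p = 1.89e-13) were among the 19, and the 3 were Ddx58 (-1.03 ± 0.14 (SE), adjusted p = 7.15e-08), Mavs and Xaf1. The Ezh2 knockout responded more than 1A for 4 members (5.42%) and less for 5 (6.76%). For Bst2 that difference was 1.03 ± 0.22 (SE), adjusted p = 0.000483, for Ddx58 -0.83 ± 0.14 (SE), adjusted p = 8.89e-06, for Xaf1 -1.74 ± 0.33 (SE), adjusted p = 0.000104 and for Oas1a -1.01 ± 0.27 (SE), adjusted p = 0.00774. V19 differed from 1A in 1 member (0.975%), Ifit2, whose value rests on the prior count because 1A had no count at 96 h.

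The rest of the pathway was read from a list of 109 other genes, of which 74 were tested. Interferon ligand genes were near the limit of detection. The 21 listed had 77 counts in all over 60 libraries, 69 of them from Ifnk, and the other ligands had 8 counts with no more than 1 in a library. Ifnk itself reached 2.19 to 3.08 CPM in Eed knockout libraries at 96 h.

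Among the 16 receptors, kinases and inhibitors, all 8 called at 96 h in the Eed knockout were higher, where 39.7% of all genes were called and 23.3% were called higher. More of the 16 were called in the other lines, at 10 in 1A, 11 in V19 and 11 in the Ezh2 knockout, with 6 higher in each. Of 19 genes of sensor signalling, 10 were higher and 2 lower in the Eed knockout at 96 h. Of 38 other interferon-stimulated genes, 31 were higher and 2 lower there, among them the class I histocompatibility genes H2-D1 (log2 change 1.93 ± 0.10 (SE), adjusted p = 6.39e-23) and H2-K1 (1.61 ± 0.13 (SE), adjusted p = 2.5e-15). Over all 74 genes, 50 were higher and 4 lower in the Eed knockout, beside 23.3% and 16.4% of all genes tested. These genes went through the same filter, and Gbp3, Gbp7 and Irf2, for example, could pass it only through Eed knockout libraries. Their highest libraries elsewhere were at 0.832, 0.344 and 0.914 CPM. The counts for the Eed knockout are thus not independent of the filter, and no count without such genes was made. The counts in the other lines were nearer to the shares of all genes, with 19 and 16 in 1A (25.1% and 23.5%), 15 and 16 in V19 (24.8% and 22.7%), and 16 and 17 in the Ezh2 knockout (22.2% and 20.7%).

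In the wild-type lines, other members of the pathway moved with 2i. Tor3a fell in 1A from a mean of 80.8 CPM to 10.4 (log2 change -2.95 ± 0.13 (SE), adjusted p = 1.35e-25) and Lgals9, a galectin, from 39.3 to 3.80 (-3.39 ± 0.17 (SE), adjusted p = 1.29e-23). The zinc-finger antiviral protein Zc3hav1, which binds RNA, rose from 12.6 to 71.2 (2.53 ± 0.19 (SE), adjusted p = 2.56e-16). In the Eed knockout Lgals9 was at a mean of 40.8 CPM at 0 h and 68.1 at 96 h (0.74 ± 0.11 (SE), adjusted p = 2.63e-07), so the 2 lines had opposite courses for it.

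Markers of other cell types moved with the Eed knockout as well. The summed level of 8 pluripotency markers was 2958 to 5452 CPM in its libraries and 5464 to 9903 CPM in those of the other lines. The 9 trophoblast markers summed to 1676 to 5911 CPM in the Eed knockout, with the highest sums at 48 h, and to 108 to 862 CPM elsewhere. The 10 primitive endoderm markers summed to 1796 to 4426 CPM against 404 to 993 CPM. The 10 fibroblast markers were at 26.5 to 41.4 CPM against 7.49 to 21.97 CPM. Their part in the rise of the antiviral genes was not tested.

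The 10 haematopoietic and macrophage markers summed to 123 to 141 CPM in the Eed knockout at 0 h and to 245 to 257 CPM at 96 h, beside 138 to 155 CPM in 1A at 96 h. Within that list Csf1r, the receptor of macrophage colony-stimulating factor, had a mean of 10.3 CPM at 0 h and 114 CPM at 96 h in the Eed knockout, beside 1.27 CPM in 1A at 96 h. The rest of the sum came mostly from Laptm5, at a mean of 106 CPM at 0 h and 108 CPM at 96 h (133 CPM in 1A at 96 h), and Cd68, at 7.31 and 22.1 CPM (9.83 CPM in 1A). At 96 h in the Eed knockout, Cd74 had a mean of 4.34 CPM and Itgam 2.06 CPM, Lyz2 and Fcer1g were under 1 CPM, and Ptprc, Tyrobp and Adgre1 had no count. The part of these markers in the result was not tested.

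**Figure D5:**
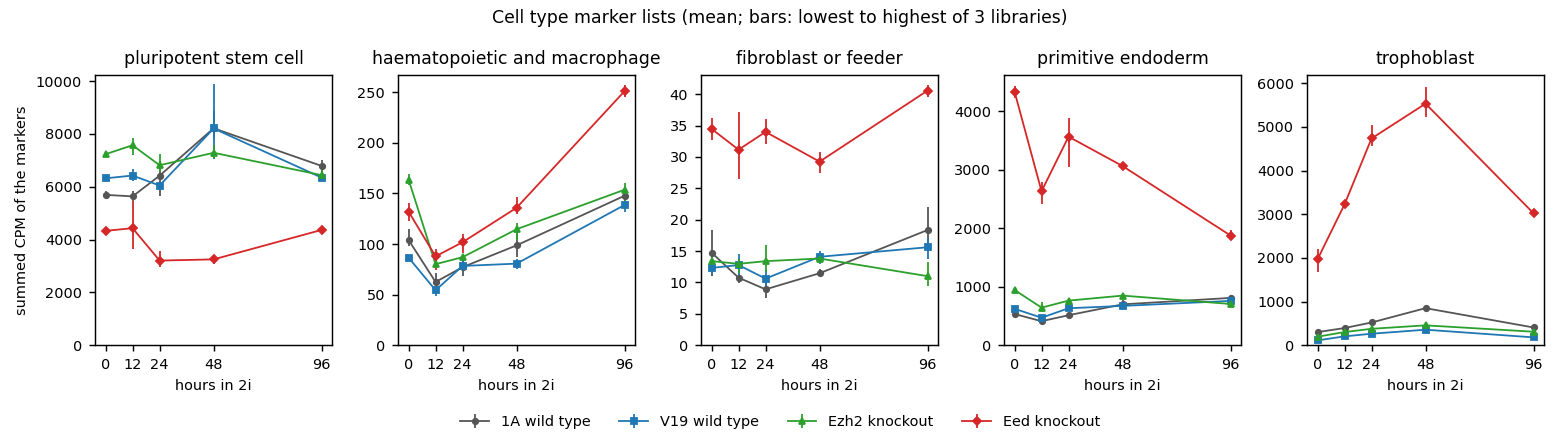
Summed CPM of 5 lists of cell type markers against hours in 2i in the 4 lines (mean of 3 libraries, bars from the lowest to the highest). The trophoblast and primitive endoderm sums of the Eed knockout lie above those of the other lines at all 5 times, and its pluripotency sum lies below their means.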

How the data were processed

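RNA-seq of polyadenylated RNA gave 60 libraries, 3 biological replicates in each of 20 groups of line and time, and replicate numbers come from the labels. The deposited raw counts per gene were made from single reads of merged runs with STAR 2.7.10b and featureCounts 2.0.3 on GRCm39, per the submitters' processing notes. The authors also deposited RUV-normalized values, treated here as a score because their settings are not given in the sources used here. A table of transformed values was not used here. CPM, RPKM and all tests were computed here from the raw counts. No pair of replicates held identical counts (60 pairs compared). The labels call the replicates biological and do not say whether cultures were separate, so p-values measure the spread between these libraries.

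The raw counts were fitted with edgeR 4.0.16 (R 4.3.3), TMM factors, filterByExpr by group (minimum count 10, minimum total 15, leaving 15083 genes) and 1 quasi-likelihood model of all 20 groups with 40 residual degrees of freedom. A total of 27 comparisons were tested, with Benjamini-Hochberg adjustment over all genes in each and a threshold of 0.05. CPM used the TMM library sizes. Intervals of count ratios are exact 95% intervals and, like the floor of 3 counts over a group, cover counting error only. In the leave-one-out fits the dispersion trend of the full fit was kept. On data simulated for the comparison of the Eed knockout at 96 h and 0 h, the fit was tested before use. Alternatives were DESeq2 1.42.0 (its size factors also within edgeR), other filters, a replicate block, groups fitted alone, limma 3.58.1 on log2 of the RUV values plus 1, and leaving out libraries. The pathway and member lists were chosen with earlier results of these data known. Members were named with full statistics where adjusted p was under 0.05, replicates did not overlap and the higher group had a mean of at least 1 CPM, up to 6 per direction and comparison, and up to 4 other pathway genes per comparison. The text shows a part of those named, and other members were chosen after their values were seen.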

Additional observations from a re-analysis of the deposited data

Results flagged for a closer look

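The 96 h response differed between lines, by a test of the difference itself (edgeR's quasi-likelihood test, adjusted p under 0.05), for the members listed here. Positive values mean a higher log2 response than in 1A wild type. The Eed knockout difference was 6.89 for Isg15, 5.81 for Lgals3bp, 5.64 for Oasl2 and 5.05 for Irf7. These genes, and Ifit1 below, passed the filter only through Eed knockout libraries, which fixes that they were high there. In 1A at 96 h Isg15 was at 0.159, 0 and 0 CPM, Lgals3bp at 0, 0.191 and 0.184 and Irf7 at 0, 0 and 0.367. The sizes of these differences thus rest on values near the limit of detection. Without 1A 0 h replicate 2, Lgals3bp (4.62, adjusted p = 0.167, edgeR) and Irf7 (4.24, adjusted p = 0.248, edgeR) missed the threshold. The difference was 8.82 for Ifit2 and 8.68 for Ifit1, which had no count in 1A at 96 h, so that these values rest on the prior count. The Eed knockout responded less for Xaf1 (-2.04), Ddx58 (-1.03) and Mavs (-0.39). The Mavs difference missed the threshold without a filter (adjusted p = 0.264, edgeR) and without 1A 0 h replicate 2, Eed knockout 0 h replicate 2 or 3, or Eed knockout 96 h replicate 1 (adjusted p from 0.0517 to 0.0711).

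In the Ezh2 knockout the difference was 1.03 for Bst2 and 0.84 for Parp9, and 5.25 for Ifit2, again with no count in 1A at 96 h. Parp9 missed the threshold in 6 of the 12 fits that left out 1 library, those without Ezh2 knockout replicate 1 or 2 at 0 h or at 96 h, 1A 0 h replicate 1 or 1A 96 h replicate 2 (adjusted p from 0.0515 to 0.0816, edgeR), and on the RUV values (adjusted p = 0.0626, limma). Ifit2 missed it without Ezh2 knockout 96 h replicate 2 (4.21, adjusted p = 0.156, edgeR) or 1A 96 h replicate 1 (adjusted p = 0.057). The Ezh2 knockout difference was negative for Samd9l (-2.17), Xaf1 (-1.74), Oas1a (-1.01), Ddx58 (-0.83) and Mavs (-0.53), and Mavs missed the threshold without a filter (adjusted p = 0.0624, edgeR). In V19 wild type the value for Ifit2 was 5.30, which rests on the prior count in the same way and missed the threshold in 7 of the 12 fits that left out 1 library, those without 1A 0 h replicate 2, V19 0 h replicate 1, any 1 of the 1A 96 h replicates, or V19 96 h replicate 2 or 3 (adjusted p from 0.0604 to 0.155, edgeR), and on the RUV values (2.48, adjusted p = 0.0939, limma). All of these share the 1A libraries.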

How the results depend on the processing

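The counts of called members in the Eed knockout at 48 h and 96 h were 28 to 29 when each library was left out in turn (29 with all), and 29 to 30 against 1A at 96 h (30 with all). Fitting the compared groups alone gave 10 members in 1A at 24 h, 9 in the Eed knockout at 12 h and 2 for the V19 difference of response. The RUV values gave 20 in V19 at 24 h, 9 in the Eed knockout at 24 h, 17 for the Eed knockout against 1A at 96 h, 9 for it against the Ezh2 knockout at 96 h, and 7 other pathway genes for V19 against 1A at 0 h. In that order 6131, 4184, 3486, 2715 and 1513 of all 17754 genes were called on those values. Without a filter, V19 against 1A at 0 h gave 1. For V19 against 1A at 96 h, 0 members were called with the filter at a mean of 1 CPM (5 at an unadjusted p under 0.05, edgeR) and 0 by DESeq2 (3 unadjusted). For the V19 difference of response these were 0 with the filter (3 unadjusted, edgeR), 0 by DESeq2 (4 unadjusted) and 0 on the RUV values (6 unadjusted, limma).

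Leaving out 1 library gave 8 to 13 members in V19 at 12 h (14 with all; 8 without 0 h replicate 1 and 9 without 12 h replicate 3). V19 against 1A at 0 h gave 2 to 3 (4 with all; 2 without 1A replicate 2 or 3 or any 1 V19 replicate). The Ezh2 knockout against 1A at 96 h gave 2 to 3 (4 with all; 2 without Ezh2 knockout replicate 1 or 1A replicate 1 or 3). V19 against 1A at 96 h gave 0 to 1 (0 without V19 replicate 3, with 4 at an unadjusted p under 0.05, edgeR), and its difference of response 0 to 1 (0 without 1A 0 h replicate 2, V19 0 h replicate 1, any 1 of the 1A 96 h replicates, or V19 96 h replicate 2 or 3, with 3 to 5 unadjusted, edgeR). Other pathway genes for V19 against 1A at 0 h gave 7 to 9 (12 with all; 7 without 1A replicate 1).

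On the RUV values 12 changes of named genes turned: Ifih1 in the Eed knockout at 24 h (0); against 1A at 0 h Ifi27 (-0.33), Cxcl10 (-0.75), Ifih1 (-1.41), Rsad2 (-3.61), Oasl2 (-2.58) and H2-D1 (-0.38); against the Ezh2 knockout at 0 h Rsad2 (-2.16), Ifi27 (-0.77) and Oasl2 (-1.35); Mavs against 1A at 96 h (0.028); and Rsad2 against the Ezh2 knockout at 96 h (-0.084). The cause was not tested. Isg15 in the Eed knockout at 24 h was 0.53 on these values and missed the threshold (adjusted p = 0.482, limma).

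Same-numbered replicates did not deviate together (correlations from -0.15 to 0.20, with every pair over 0.1 in none of 24 comparisons). With the replicate block 29 members were called in the Eed knockout at 96 h. Of the changes of named genes, those that kept their direction and missed the threshold were 127 of 1704 over the fits that left out 1 library, 34 of 266 on the RUV values (beside the 12 that turned), 19 of 266 without a filter, 5 of 264 by DESeq2, 5 of 243 with groups fitted alone, 4 of 35 without the libraries that stood apart, 2 of 250 with the filter at a mean of 1 CPM, 2 of 266 with DESeq2's size factors and 1 of 266 with the block. Depth limits genes with a few counts per group, for which ratios and their intervals are given.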
